A study of Mus musculus with 6 samples.

Results

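The genes described here encode the nuclear subunits of respiratory complexes III and IV and of the ATP synthase, together with cytochrome c. They were found by symbol among the 55335 gene identifiers of the count table, and all 36 were present: 9 of complex III, 11 of complex IV, 15 of the ATP synthase and Cycs. RNA was measured in P14 CD8+ T cells, T cells of C57BL/6 mice, given as 10-week-old, whose transgenic receptor recognizes the GP33-41 peptide. They were transferred into C57BL/6 mice 11 days after implantation of B16-GP33-41 melanoma cells, and the donor cells were sorted by flow cytometry from the tumor (3 libraries, labelled P14 TIL) and from the spleen of the same tumor-bearing mice (3 libraries, labelled P14 Sp). Every library thus carries the same receptor, and no group lacked the tumor. The sources used here do not say how long after transfer the cells were sorted, or whether libraries of 1 tissue came from separate mice. The p-values therefore reflect the variation among these libraries alone, and that variation may be technical.

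Complex III passes electrons from ubiquinol to cytochrome c and pumps protons out of the matrix. Complex IV takes the electrons from cytochrome c to oxygen, and the ATP synthase lets the protons flow back and makes ATP. Each complex is built from nuclear-encoded subunits and from a few subunits encoded by the mitochondrial genome, which are made inside the organelle. T cells build up this machinery when they divide and differentiate, and its state in T cells inside tumors is widely studied.

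P14 cells from tumor held more of the nuclear transcripts than P14 cells from spleen. By edgeR's quasi-likelihood test with Benjamini-Hochberg adjustment over all 19783 genes tested, 28 of the 36 members were higher in tumor at an adjusted p below 0.05, 0 were lower and 8 did not pass. The share of all tested genes called higher was 34.8% (6890 genes). The median log2 fold change of the members, tumor over spleen, was 0.43, a 1.35-fold difference, and that of all tested genes was -0.02. All 36 passed the filter on low counts. In 29 members each tumor library lay above each spleen library, an arrangement seen for 36.5% of all tested genes. Against a null of a 1.5-fold change, 7 members were called higher (Uqcrfs1, Uqcrq, Cyc1, Cycs, Atp5b, Atp5g1 and Atp5g2), and the share of all tested genes so called was 14.9%. In 1 bulk library, more cells with a transcript and more of it per cell cannot be told apart.

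**Figure D1:**
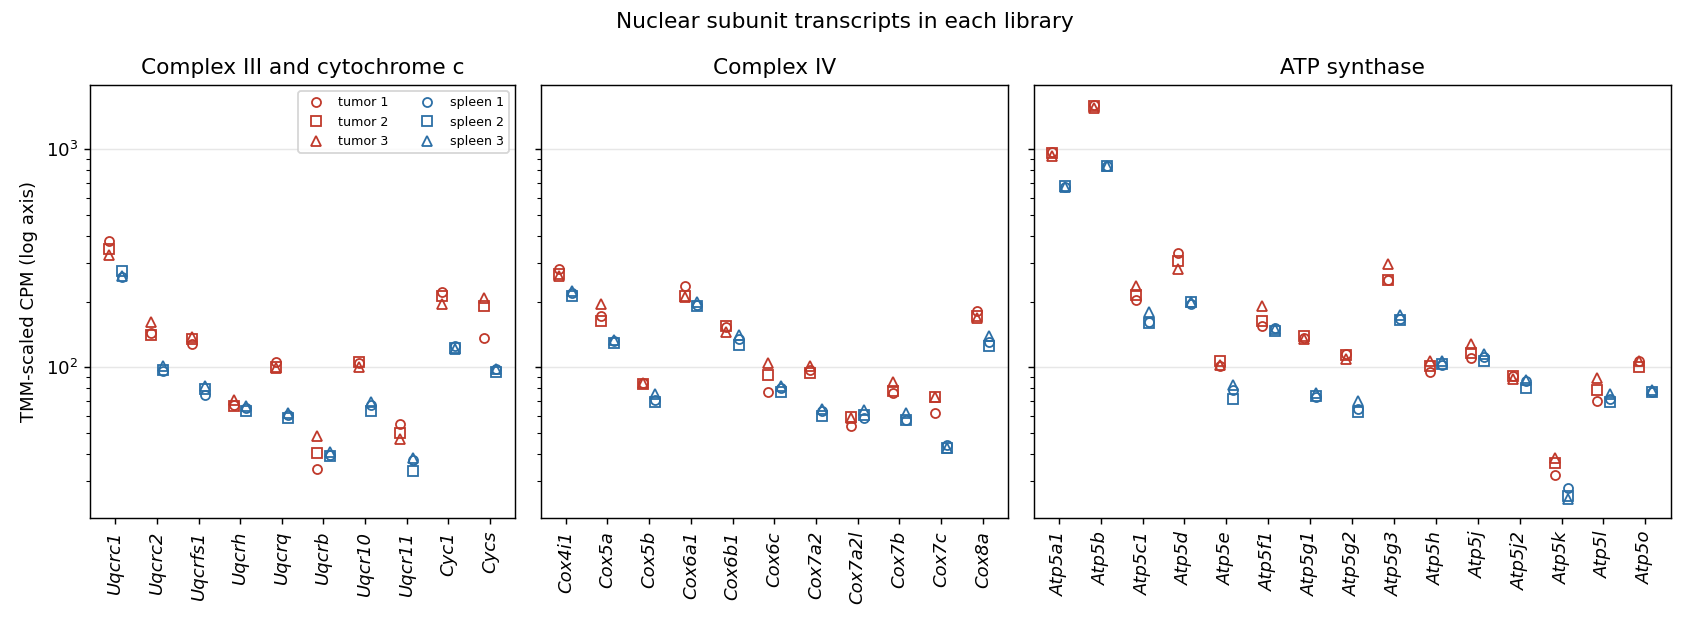
TMM-scaled CPM (log axis) of the 36 nuclear genes in each library; red symbols are tumor, blue are spleen, and circle, square and triangle are replicates 1, 2 and 3. The 3 tumor libraries of Atp5b lie between 1555 and 1603 CPM and its spleen libraries between 838 and 839, while the symbols of Uqcrb, Cox7a2l and Atp5h overlap.

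Levels are given as CPM, counts scaled to the library size after edgeR's TMM factors, and they are divided by the length of the principal transcript in kilobases where genes are set against each other. Depth was even, with total counts from 35095261 to 38263483. The 3 tumor libraries differed more among themselves than the spleen libraries did, with a biological coefficient of variation of 10.5% against 3.21% over all genes. All libraries held the CD8 T cell markers at a high summed level, 4622 to 4699 CPM in tumor and 5130 to 5221 in spleen over 8 genes, of which 1 was higher and 3 lower in tumor. Markers of other cells were mostly lower in tumor. The 12 B cell markers summed to 283 to 291 CPM in tumor and 1429 to 1435 in spleen, all 12 lower, with Cr2 at 0 in tumor and Ighm the leading gene. The 8 markers of dendritic cells and MHC class II summed to 79.3 to 86.8 against 1760 to 1803 CPM, all 8 lower, with Clec9a and Siglech at 0 in tumor. The 12 macrophage and monocyte markers summed to 52.2 to 55.2 against 305 to 320 CPM, all 12 lower. The 5 neutrophil markers summed to 0.578 to 0.817 against 15.8 to 18.3 CPM (4 lower, 1 not tested). The 6 erythroid markers summed to 246 to 282 CPM in tumor and 205 to 209 in spleen (5 higher, 1 lower). The 7 melanoma markers summed to 9.91 to 11.0 against 19.2 to 21.2 CPM (1 higher, 1 lower, 4 not tested). Pmel made up most of that sum, with means of 8.63 CPM in tumor and 19.6 in spleen. Dct, the marker called higher, was at 0.451 to 0.475 CPM in tumor and 0 to 0.0263 in spleen. Tyrp1, not tested, was at 0.248 to 0.873 CPM in tumor and 0 in every spleen library, and Mitf did not pass (0.371 against 0.596 CPM). The 6 fibroblast and endothelial markers summed to 52.1 to 57.7 against 85.6 to 87.5 CPM (1 lower, 4 not tested). Pecam1 made up nearly all of it, with means of 55.4 and 85.5 CPM. The part of these other cells in the subunit results was not tested.

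Promoter stretches are shown for the gene with the largest rise of each complex that has an entry in the RefSeq promoter table (Atp5b, Uqcrfs1, Cox7c), for Cycs, for Atp5g3, which holds the only ERR match, and for Atp5h, which did not pass the test. Each is on GRCm38.p6, reads 5′ to 3′ on the gene's strand and ends at base 30 of the first annotated exon. Capitals mark matches to the motifs searched for the factors NRF1 (GCGCANGCG), the ETS family with GABP (CCGGAAG), YY1 (AANATGGC) and ERR (TCAAGGTCA), on either strand. The stretch of Atp5b is chr10:128083123-128083302 on the plus strand. The others lie on the minus strand, at chr2:73911297-73911476 for Atp5g3, chr6:50566540-50566719 for Cycs, chr13:30545333-30545512 for Uqcrfs1, chr13:86046875-86047045 for Cox7c and chr11:115419933-115420112 for Atp5h.
Atp5b: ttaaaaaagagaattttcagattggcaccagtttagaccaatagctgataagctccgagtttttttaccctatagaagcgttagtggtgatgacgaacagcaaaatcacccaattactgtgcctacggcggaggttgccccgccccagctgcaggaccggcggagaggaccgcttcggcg
Atp5g3: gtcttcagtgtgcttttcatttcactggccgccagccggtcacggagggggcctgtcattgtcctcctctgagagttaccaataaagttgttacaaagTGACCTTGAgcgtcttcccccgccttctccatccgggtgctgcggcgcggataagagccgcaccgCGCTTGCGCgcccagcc
Cycs: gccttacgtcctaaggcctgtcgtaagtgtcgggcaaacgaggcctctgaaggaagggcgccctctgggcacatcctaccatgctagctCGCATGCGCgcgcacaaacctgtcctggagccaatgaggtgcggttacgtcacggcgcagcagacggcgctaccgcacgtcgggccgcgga
Uqcrfs1: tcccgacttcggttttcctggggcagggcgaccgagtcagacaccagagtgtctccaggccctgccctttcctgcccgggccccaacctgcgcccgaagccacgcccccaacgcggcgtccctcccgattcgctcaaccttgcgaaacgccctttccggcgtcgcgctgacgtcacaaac
Cox7c: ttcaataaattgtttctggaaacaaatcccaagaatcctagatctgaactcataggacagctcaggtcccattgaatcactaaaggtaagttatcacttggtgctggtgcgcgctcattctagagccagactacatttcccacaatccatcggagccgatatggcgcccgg
Atp5h: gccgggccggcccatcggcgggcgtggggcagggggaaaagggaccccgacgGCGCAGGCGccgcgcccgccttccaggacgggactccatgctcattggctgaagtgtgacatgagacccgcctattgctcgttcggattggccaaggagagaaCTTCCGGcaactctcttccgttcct
In Cycs the NRF1 letters begin 61 bases before the start site, and in Atp5h they begin 141 bases before it, with ETS letters 38 bases before it. Atp5g3 holds ERR letters 52 bases before and NRF1 letters 13 bases after its start site. The stretches of Atp5b, Uqcrfs1 and Cox7c hold no match to these motifs. The window of Atp5b holds YY1 letters 17 bases after its start site, beyond the stretch shown. Letters of the G+C box GGGCGG, counted below, are not capitalized. The stretch of Atp5b holds their reverse complement, CCGCCC, 45 bases before the start site.

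The promoter table matched 28 of the 36 members, with 31 windows of 300 bases (250 before and 50 after the start site). No entry was present for Uqcrc2, Uqcrq, Uqcrb, Cyc1, Cox4i1, Cox6c, Atp5a1 and Atp5f1. The NRF1 letters occurred in 11 of the 31 windows (35.5%), against 12.3% of the 13400 windows of all tested genes and 6.25% of all 32851 windows in the table. The ETS letters occurred in 10 windows (32.3%, against 17.2% and 8.86%) and the YY1 letters in 4 (12.9%, against 8.30% and 6.05%). A G+C box searched as GGGCGG went the other way, in 9 windows (29.0%, against 59.0% and 35.7%). The ERR letters occurred in 1 window, that of Atp5g3 (3.23%, against 0.336% and 0.423%). Of the 22 matched genes higher in tumor 9 held the NRF1 letters, as did 2 of the other 6, and 6 of the 22 and 4 of the 6 held the ETS letters. These are descriptions of letters in a window, and the motifs can overlap.

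In complex III, 7 of 9 genes were higher in tumor, with a median log2 fold change of 0.60 (1.52-fold). Over all tested genes the share called higher was 34.8%. Cyc1 encodes cytochrome c1, the haem subunit that hands electrons to cytochrome c. Its level was 222, 213 and 196 CPM in tumor and 126, 122 and 122 CPM in spleen, and the groups were far apart. The log2 fold change was 0.77 ± 0.06 (SE, n = 3 per tissue), with an edgeR adjusted p of 4.6e-07. Uqcrfs1 encodes the Rieske iron-sulfur protein, the other redox subunit encoded in the nucleus. It was at 127, 134 and 138 CPM in tumor and 74.9, 79.8 and 81.9 CPM in spleen, a log2 fold change of 0.76 ± 0.06 (edgeR adjusted p = 5.5e-07). Both redox subunits thus rose by nearly the same log2 value, and both passed the 1.5-fold null.

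The core proteins Uqcrc1 and Uqcrc2, which form the large matrix part of the complex, both rose. Uqcrc1 was at 378, 349 and 328 CPM in tumor and 259, 275 and 263 in spleen (log2 fold change 0.41 ± 0.06). Uqcrc2 was at 144, 140.2 and 162 CPM in tumor and 95.7, 97.0 and 101 in spleen (0.60 ± 0.07). Neither passed the 1.5-fold null. The 5 small subunits were split. Uqcrq, which lies beside cytochrome b, was at 105, 99.8 and 99.0 CPM in tumor and 60.2, 58.5 and 61.4 in spleen, with a log2 fold change of 0.76 ± 0.06 (edgeR adjusted p = 3.5e-07). Uqcr10 (0.63 ± 0.06) and Uqcr11 (0.48 ± 0.08) were higher as well.

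The remaining pair did not pass. Uqcrh, the acidic hinge protein at which cytochrome c docks, was at 67.4, 66.2 and 70.5 CPM in tumor and 64.7, 63.2 and 66.3 in spleen, with a log2 fold change of 0.07 ± 0.06 (edgeR adjusted p = 0.28). Uqcrb, a subunit that binds near the quinone site, was at 34.1, 40.5 and 48.6 CPM in tumor and 39.5, 39.0 and 40.8 in spleen (0.05 ± 0.11, edgeR adjusted p = 0.71). Its 3 tumor libraries straddled the spleen values, and its log2 fold change was -0.08 without tumor library 3. The processed pseudogenes Uqcrh-ps1 and Uqcrh-ps2 together held 19.8% to 23.4% as many counts as Uqcrh, and their log2 fold changes were 0.05 and 0.05.

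Cycs encodes somatic cytochrome c, the mobile carrier between complexes III and IV. It was at 135, 190.5 and 209 CPM in tumor and 97.7, 94.7 and 98.5 in spleen. The groups did not overlap, and the tumor libraries had the widest spread of any member, a coefficient of variation of 21.4% against 2.08% in spleen. The log2 fold change was 0.88 ± 0.12 (edgeR adjusted p = 6.4e-05). It ranged from 0.76 to 1.17 over the alternatives run. The pseudogenes Cycs-ps2 and Cycs-ps3 held 8.0% to 12.3% as many counts as Cycs and were higher in tumor too, by 1.13 and 1.10 on the log2 scale. Whether reads were split between the copies was not tested. Cyct, the testis form, had 0 counts in every library.

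In complex IV, 9 of 11 genes were higher in tumor, with a median log2 fold change of 0.32 (1.24-fold). Of the 11, 0 passed the 1.5-fold null. The differences were thus small, and they spanned -0.10 to 0.69. Beside these counts, 34.8% of all tested genes were called higher, and 14.9% against the 1.5-fold null. Cox7c and Cox7a2, small single-span subunits of the membrane part, stood at the top. Cox7c was at 61.4, 72.9 and 73.2 CPM in tumor and 44.0, 42.5 and 42.4 in spleen (log2 fold change 0.69 ± 0.08, edgeR adjusted p = 8.3e-06). Cox7a2 was at 97.3, 93.6 and 101 CPM in tumor and 63.3, 59.6 and 64.4 in spleen (0.64 ± 0.06). Cox7b (0.45 ± 0.07), Cox5a (0.43 ± 0.07) and Cox8a (0.40 ± 0.06) followed.

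Cox4i1, the ubiquitous form of subunit IV, at which ATP slows the enzyme, was at 283, 266 and 263 CPM in tumor and 218, 211 and 223 in spleen, a log2 fold change of 0.32 ± 0.05. Cox5b, the zinc-binding subunit, was at 84.2, 83.6 and 84.5 CPM in tumor and 70.9, 69.3 and 75.0 in spleen (0.23 ± 0.06). Cox6a1 was at 236, 211 and 211 CPM in tumor against 192, 191 and 199 in spleen (0.18 ± 0.06, edgeR adjusted p = 0.019). Cox6b1, on the intermembrane side, was at 154, 155 and 145 against 135, 126 and 141 CPM (0.18 ± 0.06, edgeR adjusted p = 0.021). Both calls lay near the threshold and were lost when some libraries were left out, at similar fold changes. For Cox6a1 the log2 fold change was 0.17 without spleen library 1 (edgeR adjusted p = 0.070) and 0.17 without spleen library 2 (0.069). For Cox6b1 it was 0.16 without tumor library 2 (edgeR adjusted p = 0.071), 0.18 without spleen library 1 (0.059) and 0.13 without spleen library 2 (0.11). Under upper-quartile scaling both were at 0.12 and neither passed (edgeR adjusted p = 0.081 and 0.087).

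Cox6c and Cox7a2l did not pass. Cox6c was at 76.7, 91.8 and 104 CPM in tumor and 80.1, 76.8 and 81.9 in spleen, and tumor library 1 lay just below the lowest spleen library while the other tumor libraries lay above all of them (log2 fold change 0.19 ± 0.09, edgeR adjusted p = 0.090). Without tumor library 1 the log2 fold change was 0.31 (edgeR adjusted p = 0.0011). Its pseudogene Cox6c2 held 37.8% to 45.1% as many counts and differed by 0.21. Cox7a2l, a relative of Cox7a2 that helps join complexes III and IV into supercomplexes, was at 53.5, 59.1 and 58.7 CPM in tumor and 58.6, 60.7 and 63.9 in spleen (-0.10 ± 0.07, edgeR adjusted p = 0.20). It was the lowest log2 fold change of the 36 genes.

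In the ATP synthase, 11 of 15 genes were higher in tumor, beside 34.8% of all tested genes, with a median log2 fold change of 0.43 (1.35-fold). All 5 genes of the F1 head and central stalk rose. Atp5b encodes the catalytic beta subunit. It was at 1603, 1576 and 1555 CPM in tumor and 839, 838 and 839 in spleen, with a coefficient of variation of 1.54% and 0.0499%. The spleen value is below the counting error at this depth, so it does not measure how well libraries repeat. The log2 fold change was 0.91 ± 0.05 (1.88-fold, edgeR adjusted p = 1.9e-08), the largest of the 36 genes. Atp5a1, the alpha subunit that alternates with beta in the head, was at 970.0, 962 and 928 CPM in tumor and 669, 678 and 673 in spleen (0.50 ± 0.05, edgeR adjusted p = 2.9e-06). Both had their tissues far apart, and only Atp5b of this pair passed the 1.5-fold null.

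Per kilobase of transcript, Atp5b was the highest of the 36 genes in both tissues, at 824 CPM per kb in tumor and 438 in spleen. Atp5a1 was at 386 and 272 CPM per kb. Among the subunits of the rotating stalk, Atp5d (delta) was at 334, 309 and 281 CPM in tumor and 195, 200.1 and 200.2 in spleen (log2 fold change 0.63 ± 0.07). Atp5e (epsilon) differed by 0.41 ± 0.06 and Atp5c1 (gamma) by 0.39 ± 0.07. Atp5c1-ps held 9.06% to 10.9% as many counts as Atp5c1 and differed by 0.55.

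The c ring, the rotor in the membrane, is built from copies of 1 mature protein that 3 genes encode, and all 3 rose, with a median log2 fold change of 0.78. Atp5g1 was at 137, 139 and 135 CPM in tumor and 73.3, 73.9 and 75.9 in spleen (0.88 ± 0.05, edgeR adjusted p = 5.5e-08). Atp5g2 was at 115, 113 and 109 CPM against 64.5, 62.1 and 69.8 (0.78 ± 0.06, edgeR adjusted p = 5.6e-07). Atp5g3 was at 251, 250.5 and 298 CPM against 166, 165 and 173 (0.66 ± 0.07, edgeR adjusted p = 7.5e-06). Every tumor library lay above every spleen library in each of them. Over all tested genes 36.5% had that arrangement, and 34.8% were called higher. Per kilobase, Atp5g3 made up 65.0%, 65.2% and 69.9% of the summed c subunit level in tumor and 68.9%, 69.4% and 68.2% in spleen. Atp5g2 made up 29.5%, 29.2% and 25.2% against 26.4%, 25.8% and 27.2%, and Atp5g1 5.44%, 5.55% and 4.86% against 4.66%, 4.76% and 4.58%. These shares use principal transcripts of 4715 bases for Atp5g1, 731 for Atp5g2 and 723 for Atp5g3. The order of the genes by share was the same in all 6 libraries, but it depends on these lengths. By CPM alone, Atp5g1 lay above Atp5g2 in every library.

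Of the 4 genes of the peripheral stalk, which holds the head still, 2 rose, and the median log2 fold change was 0.13. The share of all tested genes called higher was 34.8%. Atp5o, the subunit at the top of the stalk, was at 107, 99.97 and 107 CPM in tumor and 76.6, 77.3 and 78.4 in spleen (0.43 ± 0.06, edgeR adjusted p = 2.9e-05). The annotation holds a second model of Atp5o that shares exons with it. That model had 56.5% to 60.6% as many counts as the main model and differed by 0.45 ± 0.06. Atp5f1, the b subunit, was at 154, 162 and 191 CPM in tumor and 151, 146 and 149.7 in spleen (0.18 ± 0.07, edgeR adjusted p = 0.045). That call was lost in 9 of the 17 alternatives other than the 1.5-fold null. The log2 fold change was 0.22 without tumor library 2 (edgeR adjusted p = 0.051), 0.10 without tumor library 3 (0.058), and 0.19, 0.17 and 0.19 without spleen library 1, 2 or 3 (0.10, 0.13 and 0.10). The other alternatives that lost it were upper-quartile scaling, library totals, a minimum count of 50 and limma-voom, at 0.13, 0.16, 0.16 and 0.18 (adjusted p = 0.14, 0.10, 0.082 and 0.051).

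The other stalk subunits, Atp5h (d) and Atp5j (F6), did not pass. Atp5h was at 94.6, 102 and 107 CPM in tumor and 103, 103 and 107 in spleen (log2 fold change -0.04 ± 0.06, edgeR adjusted p = 0.53). Atp5j was at 110.3, 116 and 127 CPM against 111, 107 and 116 (0.08 ± 0.07, edgeR adjusted p = 0.28). In both, the tissues overlapped. Of the small membrane subunits, which sit where the synthase pairs into dimers, 1 of 3 rose. That count is no result about these subunits beside the 34.8% of all tested genes called higher. Atp5k (e) was at 31.9, 36.2 and 38.2 CPM in tumor and 27.9, 25.7 and 24.96 in spleen (0.44 ± 0.08, edgeR adjusted p = 0.00060). Atp5j2 (f) differed by 0.09 ± 0.06, with all tumor libraries just above spleen (88.6 to 91.5 against 80.2 to 87.8 CPM). Atp5l (g) was at 70.1, 78.6 and 89.3 against 71.3, 69.0 and 75.1 CPM (0.14 ± 0.08, edgeR adjusted p = 0.14), and without tumor library 1 it passed (0.24, edgeR adjusted p = 0.0080). The 3 processed pseudogenes of Atp5l held 158% to 165% as many counts as the gene, so its level is uncertain, and Atp5k-ps2 held 13.3% to 16.9% as many as Atp5k.

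**Figure D2:**
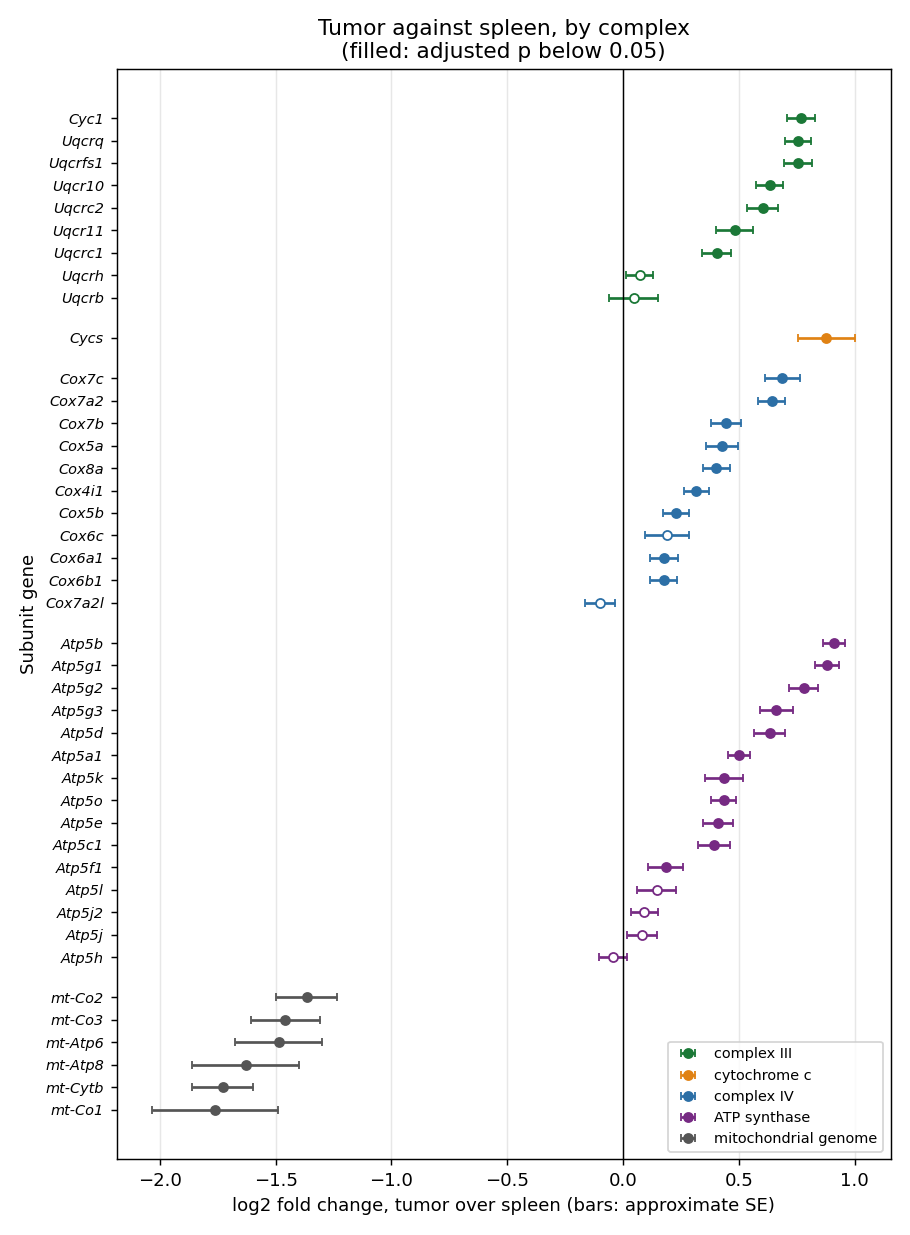
Log2 fold change, tumor over spleen, of each nuclear subunit gene and of the 6 mitochondrially encoded subunits, with bars of approximate SE; filled symbols have an edgeR adjusted p below 0.05. The nuclear genes lie from -0.10 to 0.91 and the mitochondrially encoded ones from -1.76 to -1.37.

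The subunits of the same complexes that the mitochondrial genome encodes went the other way. All 6 were lower in tumor, with a median log2 fold change of -1.56, and the share of all tested genes called lower was 35.9%. mt-Cytb, the cytochrome b of complex III, was at 219, 259 and 344 CPM in tumor and 872, 891 and 960.4 in spleen (-1.73 ± 0.13, edgeR adjusted p = 3.8e-07). For complex IV, mt-Co1 differed by -1.76 ± 0.27, mt-Co2 by -1.37 ± 0.13 and mt-Co3 by -1.46 ± 0.15. For the ATP synthase, mt-Atp6 was at 372, 579.9 and 757 CPM against 1562, 1654 and 1571 (-1.49 ± 0.19). mt-Atp8 was at 38.05, 84.0 and 87.9 against 210.3, 227 and 212 CPM (-1.63 ± 0.23). With offsets for GC content and length the value of mt-Atp8 was -0.78 with merged exons and -0.65 with the principal transcript. No tumor library reached the lowest spleen library in any of the 6, and in 5 of them tumor library 1 was the lowest of all. Over all 19783 tested genes the tissues did not overlap in 14749, of which 7212 had tumor above spleen.

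Set against each other within a library, the 2 sources gave ratios that did not overlap between tissues. For complex III, mitochondrially encoded over nuclear CPM was 0.177, 0.216 and 0.290 in tumor and 1.06, 1.07 and 1.14 in spleen. For complex IV it was 1.15, 1.48 and 1.23 against 4.62, 4.62 and 4.95. For the ATP synthase it was 0.0936, 0.152 and 0.192 against 0.616, 0.659 and 0.608. The nuclear sums alone were 1208 ± 25.7 CPM in tumor and 833 ± 9.91 in spleen for complex III, 1470 ± 22.0 and 1185 ± 39.0 for complex IV, and 4375 ± 18.9 and 2888 ± 39.1 for the ATP synthase (mean ± SD, n = 3). The 36 genes took 0.703% to 0.731% of a tumor library's counts and 0.498% to 0.513% of a spleen library's. Only the tumor cells passed through a Percoll gradient before sorting, so that step and the tissue cannot be told apart. The code each library has in the labels also ends differently by tissue, with 1 suffix for tumor and another for spleen. The labels do not say what this suffix stands for, and it cannot be told apart from the tissue in any comparison here.

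**Figure D3:**
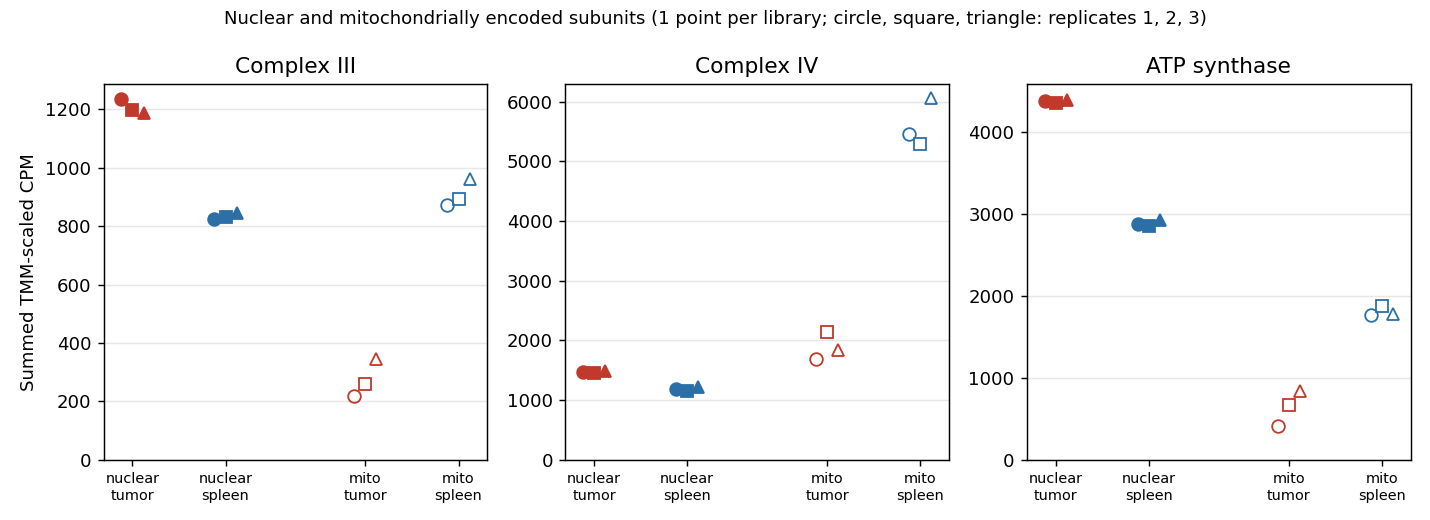
Summed TMM-scaled CPM of the nuclear (filled) and mitochondrially encoded (open, "mito") subunits of each complex, 1 point per library, red for tumor and blue for spleen. Nuclear sums are higher in tumor and mitochondrially encoded sums lower in all 3 complexes, as for complex III with 1208 against 833 CPM and 274 against 908 CPM.

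The spread between tumor libraries had a pattern of its own. The coefficient of variation of the 36 genes had a median of 6.13% in tumor (0.568% to 21.4%) and 3.06% in spleen (0.0499% to 7.29%), and it was larger in tumor for 26 genes. Tumor library 1 held the lowest tumor value for 14 genes and the highest for 12. The first set had a median GC content of 48.2% in the principal transcript and the second of 57.1%. Across the 36 genes the log2 ratio of tumor library 3 to library 1 had a Pearson correlation of -0.76 and a Spearman correlation of -0.75 with GC content, and over 19237 genes these were -0.43 and -0.55. The points share their libraries, and genes are not independent replicates. Cycs (40.8% GC) and Uqcrb (42.2%) stood at the high end of that ratio. The log2 fold change between tissues had a correlation of 0.0008 with GC content over the same 36 genes, and of 0.45 (Pearson) and 0.37 (Spearman) with log2 transcript length.

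**Figure D4:**
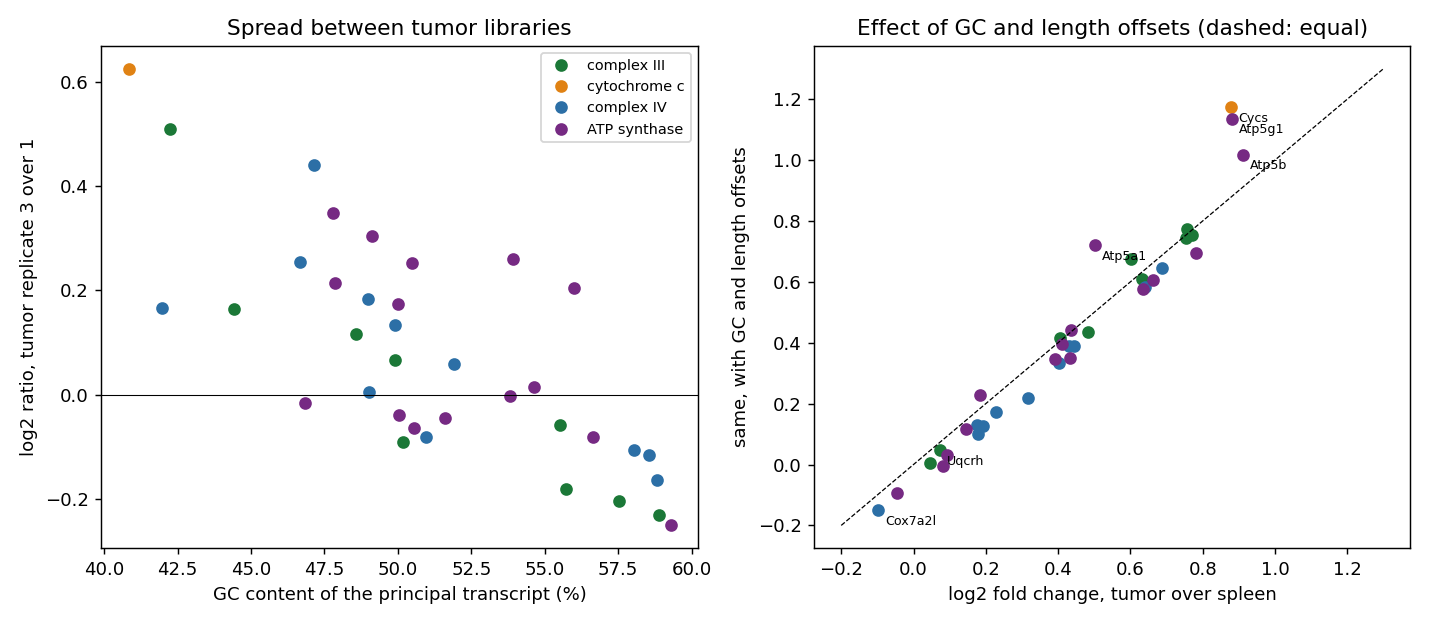
Left, the log2 ratio of tumor replicate 3 over replicate 1 against the GC content (%) of the principal transcript for the 36 genes, coloured by complex. Right, the log2 fold change with offsets for GC content and length of the principal transcript against that without; the dashed line marks equal values, and Cycs moves from 0.88 to 1.17 while Cox7a2l moves from -0.10 to -0.15.

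With such offsets, fitted in each library on the principal transcript, 28 members were still called higher, and Cox7a2l was called lower (-0.15, edgeR adjusted p = 0.023). With merged exons in place of the principal transcript 31 were called higher, among them Cox6c, Atp5j, Atp5j2 and Atp5l, while Cox6a1 was no longer called (0.04, edgeR adjusted p = 0.34) and Atp5f1 moved to 0.71 and Uqcrc1 to 0.64. Both sets of offsets moved the median of all tested genes from -0.02 to 0.12, and the members' median was then 0.48 with merged exons and 0.39 with the principal transcript. The background rose as well: of all 19783 genes tested, 8545 were called higher with the principal transcript and 8552 with merged exons, against 6890 without offsets.

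In the wider pathway, counts are read against the 34.8% of all tested genes called higher and the 35.9% called lower. Of the 36 nuclear subunits of complex I, which feeds the chain from NADH, 27 were higher and 2 lower, with a median log2 fold change of 0.35. Ndufab1, also the acyl carrier protein, differed by 0.95 ± 0.08 and Ndufa12 by 0.85 ± 0.08, while Ndufb10 (-0.22 ± 0.07) and Ndufa1 (-0.20 ± 0.07) were lower. Ndufb10 lost its call without tumor library 2 (edgeR adjusted p = 0.068) or spleen library 1 (0.051). Ndufa1 lost it without tumor library 1 (edgeR adjusted p = 0.065), tumor library 2 (0.12), spleen library 1 (0.15) or spleen library 3 (0.092). All 4 genes of complex II, the succinate dehydrogenase, were higher with a median of 0.36, and Sdhb was at 220.2, 222 and 216 CPM in tumor and 161, 162 and 161 in spleen (0.44 ± 0.05). Sdha, at 0.12 ± 0.05, lost its call in 10 of the 17 alternatives other than the 1.5-fold null, among them leaving out tumor library 2 (edgeR adjusted p = 0.082) or spleen library 1 (0.11), 2 (0.091) or 3 (0.15). With offsets for GC content and length it was larger, at 0.36 with merged exons (edgeR adjusted p = 1.2e-06) and 0.38 with the principal transcript (4.7e-07). All 3 carriers of ATP and phosphate rose. Slc25a5, an ADP/ATP exchanger, was at 563, 572 and 509 CPM against 319.7, 326 and 326 (0.76 ± 0.06), and Slc25a4 differed by 0.56 ± 0.05.

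Assembly factors changed in both directions. For complex III 4 of 6 were higher and 1 lower (median 0.50): Uqcc2 (0.78 ± 0.07) and Bcs1l, which brings the Rieske protein into place (0.63 ± 0.09), rose, and Uqcc3 fell by 0.36 on the log2 scale. For complex IV 9 of 23 were higher and 4 lower (median 0.13), and 34.8% and 35.9% of all tested genes were. Cox17, which carries copper, rose by 0.70 ± 0.07 and Lrpprc, which protects mitochondrial messenger RNA, by 0.70 ± 0.06, whereas Cox20 (-0.69 ± 0.13) and Pet100 (-0.36 ± 0.09) were lower. Of 8 genes listed as assembly factors, inhibitors and accessory genes of the ATP synthase 5 were higher and 1 lower (median 0.31). Atpaf2, a chaperone of the alpha subunit, differed by 0.38 ± 0.07 and Atp5mpl by 0.56 ± 0.10. The gene called lower was Dmac2 (-0.83 ± 0.07), listed under its older symbol Atp5sl. Its place among ATP synthase genes rests on that symbol alone.

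Of 5 genes listed for cytochrome c and supercomplexes, which include the member Cox7a2l, 3 were higher. Hccs, the enzyme that attaches haem to cytochromes c and c1, was at 69.4, 70.6 and 75.9 CPM in tumor and 31.2, 29.9 and 29.2 in spleen, and its tissues were well apart. Its log2 fold change of 1.26 ± 0.06 (edgeR adjusted p = 1.5e-08) was above that of any of the 36 subunit genes. Higd1a, a small protein that binds complex IV, was at 70.7, 71.9 and 75.7 CPM against 36.01, 35.8 and 37.4 (1.0 ± 0.06, edgeR adjusted p = 5.7e-08).

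Among 9 transcription factors and coactivators of respiratory genes, 8 were tested, 2 of them higher and 3 lower, which is no result about these genes beside the 34.8% and 35.9% of all tested genes. Pprc1, a coactivator of the PGC-1 family, differed by 0.64 ± 0.08 and Gabpb1, the partner of the ETS factor Gabpa, by 0.37 ± 0.06. Esrra (-0.48 ± 0.08) and Ppargc1b (-0.43 ± 0.10) were lower, and with offsets for GC content and length of merged exons they were at -0.24 and -0.23. With the principal transcript Ppargc1b was at -0.20 and was not called (edgeR adjusted p = 0.055), and Gabpb1 was at 0.59. Of the factors whose motifs were searched, Nrf1 was at 86.0, 86.9 and 80.0 CPM in tumor and 80.6, 78.6 and 77.9 in spleen (0.09 ± 0.06, edgeR adjusted p = 0.17). Gabpa was at 66.9 ± 1.53 against 67.0 ± 0.634 CPM (mean ± SD, n = 3; edgeR adjusted p = 0.97), and Yy1 was at 23.1 ± 1.11 against 28.0 ± 0.468 (log2 fold change -0.28 ± 0.07).

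Of 10 listed isoforms and relatives of these subunits, 5 had enough counts to be tested. Ndufa4 was the only one of them at a level like that of the members. Cox6b2 was at 2.28, 1.32 and 1.49 CPM in tumor and 0.676, 0.763 and 0.538 in spleen (log2 fold change 1.35 ± 0.26), a small level beside the 151 CPM of Cox6b1. Cox7a1 was at 0.392 ± 0.0326 against 0.165 ± 0.0788 CPM (mean ± SD, n = 3), and its call was lost without spleen library 1 (edgeR adjusted p = 0.063, log2 fold change 1.02) or spleen library 2 (0.056), and in DESeq2 (adjusted p = 0.090). Cox4i2, the form of subunit IV linked to low oxygen, had 1 count over the tumor libraries and 36 over the spleen libraries. Cox7b2 and Cox8c had 0 counts in every library, which allows up to 3 counts or 0.0849 CPM in a library.

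Gene models overlap at several of these loci. In 6 members another model lies on the same strand and in 12 one lies on the opposite strand, such as Gabpa beside Atp5j. The library kit kept strand, but the sources used here do not give the strand option of featureCounts, and reads of such pairs may not have been told apart.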

How the data were processed

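P14 CD8+ T cell libraries from tumor and from spleen (3 each) were read as single 50 bp reads. Per the submitters' processing notes, bcl2fastq 2.20.0.422, STAR 2.3 and featureCounts with the mm10 build were used; the sources used here do not give its strand option or its handling of multiply matching reads. The authors deposited whole-number counts per gene, not normalized. Coordinates and lengths come from GENCODE M21 (GRCm38), promoters from RefSeq.

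Tests used R 4.3.3 and edgeR 4.0.16 (quasi-likelihood, tissue as the only factor, TMM factors, filterByExpr at a minimum count of 10 and total of 15, Benjamini-Hochberg over all genes, threshold 0.05). SE is the absolute log2 fold change over the square root of F. Fold changes are tumor over spleen. The procedure was tested on simulated data. Alternatives used DESeq2 1.42.0, limma 3.58.1 voom, other scalings and filters, a replicate block, GC content and length offsets, and left out each library. Library pairs were compared by chi-square per degree of freedom: 2.19 to 3.48 within spleen, 9.06 to 33.2 within tumor, all above sampling noise. Intervals and floors (3 counts) cover counting error only.

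Members and gene lists were chosen with earlier results of these data known. All members, isoforms, mitochondrially encoded subunits and complex II genes could be named, and of other lists the 2 genes with the smallest p in each direction; of markers, the highest gene per tissue. Nrf1, Gabpa, Yy1, Dct, Mitf, markers at 0 and pseudogenes were named after their values were seen.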

Additional observations from a re-analysis of the deposited data

How the results depend on the processing

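Over 17 alternatives (other scalings, filters, tools, offsets and left-out libraries), 26 of the 36 members kept their direction and their side of the threshold, 25 of them called higher. Under upper-quartile scaling the median log2 fold change was 0.38 for the members, 0.55 for complex III, 0.26 for complex IV and 0.38 for the ATP synthase, and 25 members were called. With GC content and length offsets on merged exons the members' median was 0.48 and that of the ATP synthase 0.49. With the principal transcript, chosen after seeing the data, these offsets gave 0.39 for the members and 0.22 for complex IV, and 1 member of complex IV was lower. Against a null of a 1.5-fold change, also chosen after seeing the data, 7 members were higher (3 of complex III, 0 of complex IV, 3 of the ATP synthase), with 2953 genes higher and 3464 lower among all tested. Leaving out 1 library in turn gave 25 to 30 members called higher, and medians of 0.42 to 0.45 for the members, 0.55 to 0.64 for complex III, 0.30 to 0.34 for complex IV and 0.42 to 0.45 for the ATP synthase. Signs turned for members that did not pass: Uqcrb (-0.0061 with upper-quartile scaling, -0.083 to 0.178 without 1 library), Atp5h (-0.077 to 0.015 without 1 library) and Atp5j (-0.0041 with principal transcript offsets). Ndufa4 also turned (0.0013 with merged exon offsets, -0.15 to 0.051 without 1 library). The cause was not tested. The replicate block left 28 members called higher and moved all genes to 6746 higher and 7026 lower. The numbers were not taken as pairs, since the sources used here do not say that equal numbers mark 1 mouse. Deviations of equal-numbered libraries had correlations of -0.00079, 0.016 and 0.0024, and those of unequal numbers lay from -0.020 to 0.014. With 3 libraries per tissue these correlations cannot show whether mice were shared. Low counts kept 5 of 10 isoforms and 1 of 9 transcription factors from being tested.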

Other observations

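Within complex IV, the mitochondrially encoded genes did not move together across the tumor libraries. mt-Co1, the catalytic subunit, was at 824, 961 and 352 CPM in tumor libraries 1, 2 and 3, whereas mt-Co3 was at 629, 868 and 1085 CPM and mt-Co2 at 244, 314 and 398 CPM. The ratio of mt-Co1 to mt-Co3 was 1.31, 1.11 and 0.325 in tumor and 0.994, 0.996 and 1.07 in spleen, so tumor library 3 stood apart for this 1 gene. Without that library the log2 fold change of mt-Co1 was -1.43 in place of -1.76.

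Ndufa4, long listed with complex I and now counted as a subunit of complex IV, was at 73.8, 81.3 and 96.2 CPM in tumor and 88.7, 83.7 and 87.2 in spleen (log2 fold change -0.05 ± 0.09, edgeR adjusted p = 0.64). It was lower without tumor library 3 (-0.15, edgeR adjusted p = 0.025).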
